A study of Mus musculus with 6 samples.

Results

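The genes described here are mouse protein-coding genes that ended their transcripts at 3 or more poly(A) sites within the 3′ untranslated region (3′ UTR). They numbered 1481 of 10735 protein-coding genes with at least 1 qualifying 3′ UTR site, against 2810 genes with 2 sites and 6444 genes with 1. Their 5121 sites, of 32688 measured, held 14.2% of all tags. A site qualified when its 3′ edge lay in a 3′ UTR of 1 gene on the same strand (GENCODE M21, build mm10) and it held at least 5% of that gene's tags over all libraries. The sites of a gene together also needed at least 20 tags per stage on average. Members were therefore chosen on tag counts added over all stages, and no limit was set on the change with stage. A site used mainly at some stages can still qualify through the sum, as the first site of Tpm3 did, with most of its tags at P6 and P21. Just inside the limit lay sites of Edc3 and Pank3 with 5.0% of their gene's tags and of Ppm1b with 5.01%. Just outside lay sites of Smarcc1 and Bcl2 with 4.99% and of Ncbp3 with 4.98%. No gene with 3 sites could fail the minimum of tags, since every site of the series held at least 41 tags over the 6 libraries. The lowest totals of members were 166 tags for Gin1 and 167 for Zfp78.

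Retina of C57BL/6J mice was sampled before birth at E13.5, E15.5 and E18.5, on the day of birth (P0), and after birth at P6 and P21 (E, embryonic day; P, postnatal day). There was 1 sample per stage, and no treatment or allele was named. PA-seq, which primes reverse transcription on the poly(A) tail and sequences the 3′ ends of RNA, gave 3286158 tags (P0) to 4656153 tags (E18.5) per library. The series concerns alternative polyadenylation in the developing retina. With 1 sample per stage there were no replicates, so each test asked whether a measure followed stage order. For the level of a gene, the p-value tests whether the slope over the 6 libraries differed from 0. In the main test of site use, it tests whether the slopes of a gene's sites differed from each other. Both are judged against the scatter of the libraries around a straight line. For site use this scatter includes that of the gene's own level.

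A transcript ends where the cleavage and polyadenylation machinery cuts it. The CPSF complex reads the AATAAA signal (AAUAAA in RNA) or a near variant upstream of the cut, CstF reads sequence downstream of it, and cleavage factor I binds sequence that helps choose among sites. In a 3′ UTR with several sites, the first gives the shortest UTR and the last the longest, and with it the binding sites for microRNAs and RNA-binding proteins that the messenger carries. Neurons are known for long 3′ UTRs and dividing cells for shorter ones.

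Marker genes mostly followed the tissue label. Nrl, a rod transcription factor, had a library-scaled tag count (CPM) of 1007 at P21, against 112 CPM at E13.5. Sfrp2, a gene of early progenitors, had 18.0 CPM at P21, against 709 CPM at E13.5. Gnat1, another rod gene, was less clear, at 107, 224, 93.0, 238, 173 and 294 CPM from E13.5 to P21. The summed level of 20 lens genes, however, was 1357, 4074, 595, 5950, 312 and 1169 CPM from E13.5 to P21, highest in the libraries of P0 and E15.5. The part of lens tissue in the results below was not tested, but each library was left out in turn. Each stage came as a pair of count columns, which were added. In 14 member sites of 9 genes, Gnb1 and Rpl31 among them, the columns of a stage with at least 100 tags differed by more than 5-fold.

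Of the 1481 genes, 997 had 3 sites, 328 had 4, 127 had 5, 20 had 6 and 9 had 7. All sites lay in 1 terminal exon in 1315 genes, and in 166 genes they were spread over the ends of several exons, so that the choice of site there also changes the coding end or the exon used. Within 1 terminal exon, neighbouring sites were a median of 506 bases apart (quartiles 195 and 1180), with 11.8% of gaps under 100 bases. The first and last site were a median of 1796 bases apart.

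The last sites most often carried the canonical poly(A) signal. In the 40 bases before the site, AATAAA was found at 44.6% of first, 47.1% of middle and 64.3% of last sites of these genes, and ATTAAA, where the canonical signal was absent, at 18.97%, 20.3% and 18.5%. The 10 further variants searched were AGTAAA or TATAAA or CATAAA or GATAAA or AATATA or AATACA or AATAGA or ACTAAA or AAGAAA or AATGAA. No signal of either kind and no variant was found at 13.8% of first, 11.3% of middle and 5.40% of last sites. In genes with 2 sites AATAAA stood before 51.5% of first and 66.1% of last sites, and in genes with 1 site before 72.3%. Windows 140 to 100 bases before all 3′ UTR sites held AATAAA in 1.94% of cases and none of the signals in 84.9%. Sites with AATAAA took a median of 25.9% of their gene's tags, sites with ATTAAA 21.8%, sites with another variant 16.1% and sites with none 13.7%. Searches were on the transcript strand, and a match is a description of the letters only. A-rich sequence, on which the oligo(dT) primer can anneal inside a transcript, followed 6.28% of first, 5.14% of middle and 4.48% of last sites, the last counted over the 424 sites with 20 annotated bases after them.

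The sequences that end at the sites of 5 genes are printed to show the letters before each site. Stt3a, Eif1ax, Ppp1r7 and Dnmt3a are the genes whose last site passed the site test described below, and Tpm3 is the gene whose last share fell furthest among the genes past the gene test. Each line gives 30 bases of the GENCODE M21 transcript (GRCm38), 5′ to 3′, ending on the base of the site, with the signal in capitals.
Stt3a first site, chr9:36732412-36732441, minus strand: ttatcaaatgAATAAAtgtttctgggacca
Stt3a middle site, chr9:36731260-36731289, minus strand: taaaaaaaaAATAAAtccacctcaaaagca
Stt3a last site, chr9:36729345-36729374, minus strand: tgcctttccaATTAAAgacttttccaaatt
Eif1ax first site, chrX:159385672-159385701, plus strand: tgAATAAAccatttgccttgtgctcagtat
Eif1ax middle site, chrX:159387972-159388001, plus strand: ctaggaagaatAATAAAatgtttgaaatcg
Eif1ax last site, chrX:159389587-159389616, plus strand: acaattagaaAATAAAacacaaaaacaacc
Ppp1r7 first site, chr1:93365237-93365266, plus strand: ccaacactATTAAAtcttgccacgcggtct
Ppp1r7 middle site, chr1:93367586-93367615, plus strand: tctttataAATAAAaagatgtcttaaaggt
Ppp1r7 last site, chr1:93373457-93373486, plus strand: tttgtcAATAAAatgtgatactgtgagaaa
Dnmt3a site 3, chr12:3908967-3908996, plus strand: ctggagcaAATAAAaaaacatacaaaatgt
Dnmt3a site 5, chr12:3913313-3913342, plus strand: gttgaagaaatATTAAAaggtcaatgcgta
Dnmt3a last site, chr12:3914412-3914441, plus strand: cttcAATAAAcatctttatgttttggcttc
Tpm3 first site, chr3:90092098-90092127, plus strand: ccaaccccatATTAAAatgttaagctgcca
Tpm3 middle site, chr3:90098751-90098780, plus strand: tattttctaacAATAAAagcactgacttga
Tpm3 last site, chr3:90100870-90100899, plus strand: ttttgaAATAAAgaaccagtccctccacga
The last site does not always carry the canonical signal: in Stt3a the first and middle sites have AATAAA and the last ATTAAA, while in Ppp1r7 and Tpm3 the first site has ATTAAA and the later ones AATAAA. A-rich sequence follows the middle site of Stt3a, and whether tags there arose by priming inside the transcript was not tested.

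Across the genes, median use was further downstream in the later libraries. In the 1433 genes with at least 20 tags in every library, the median share of the last site was 29.2%, 28.98%, 31.3%, 31.8%, 33.3% and 34.5% of the gene's tags in stage order from E13.5 to P21. The first site's median was 19.9%, 20%, 18.9%, 17.5%, 16.9% and 16.5% over the same stages. The middle sites added together had medians of 34.2%, 33.2%, 33.0%, 32.4%, 32.3% and 31.7%. The median change of P21 minus E13.5 was +3.67 percentage points for the last site (quartiles -1.89 and 10), -2.68 points for the first and -1.03 points for the middle sites.

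The last share was higher at P21 than at E13.5 in 971 of these 1433 genes (67.8%). It was higher by 20 points or more in 90 genes and lower by as much in 16, of which 23 and 3 passed the gene test described below. In the first columns alone the median change of the last share was +3.37 points and in the second columns alone +3.74 points. The columns of one stage differed in a gene's last share by a median absolute value of 2.59 to 3.43 points. A change of that size in a single gene is therefore within the spread between the columns of a stage. What these columns stand for is not given. With sign kept, the median difference of first minus second column over genes was -0.31 (P21) to +0.97 points (E15.5). No p is given for a median over genes, since the stages were not replicated. In genes with 2 sites the last share changed by a median of +2.26 points and was higher at P21 in 63.2%. It was higher by 20 points or more in 130 of these 2557 genes and lower by as much in 36.

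**Figure D1:**
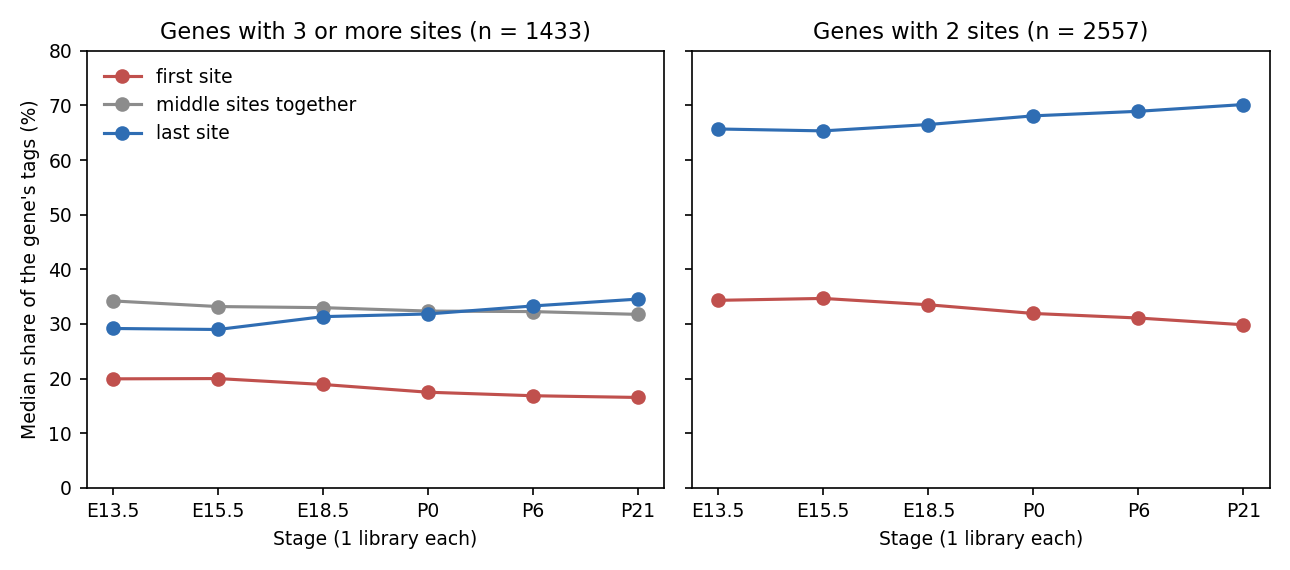
Median share of a gene's tags (%) at its first, middle and last site against stage, for genes with 3 or more sites (left) and 2 sites (right), 1 library per stage. In genes with 3 or more sites the last site has the highest median at P6 and P21, 33.3% and 34.5%, and the middle sites together the highest at E13.5, 34.2%.

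The site with the most tags also differed between stages in part of the genes. The last site led in 38.6%, 38.2%, 40.5%, 42.8%, 43.6% and 45.8% of genes from E13.5 to P21. The first site led in 25.4%, 25.5%, 24.1%, 23.0%, 22.1% and 20.4% over the same stages. Between P21 and E13.5 the leading site differed in 236 genes (16.5%), and lay further downstream at P21 in 182 of them and further upstream in 54. From one stage to the next the median change of the last share was +0.36, +0.53, +0.92, +0.87 and +0.87 points, so no single step held the whole change.

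The median difference was larger in genes with 4 or more sites than in genes with 3, and larger where sites lay further apart. Number of sites and distance were not separated from each other. The median change of the last share, P21 minus E13.5, was +3.10 points in genes with 3 sites, +4.53 points with 4 and +4.48 points with 5 or more. When the 1275 genes with all sites in 1 exon were put in 3 equal groups by distance, the change was +1.03 points where first and last site lay 125 to 1263 bases apart. It was +3.37 points at 1267 to 2496 bases and +7.06 points from 2497 bases on. In that last group the median last share was 37.3% at P21, against 26.9% at E13.5. These are descriptions over genes of the same 6 libraries. By exon structure the median change was +3.67 points with all sites in 1 exon and +3.74 points with sites over several exons.

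**Figure D2:**
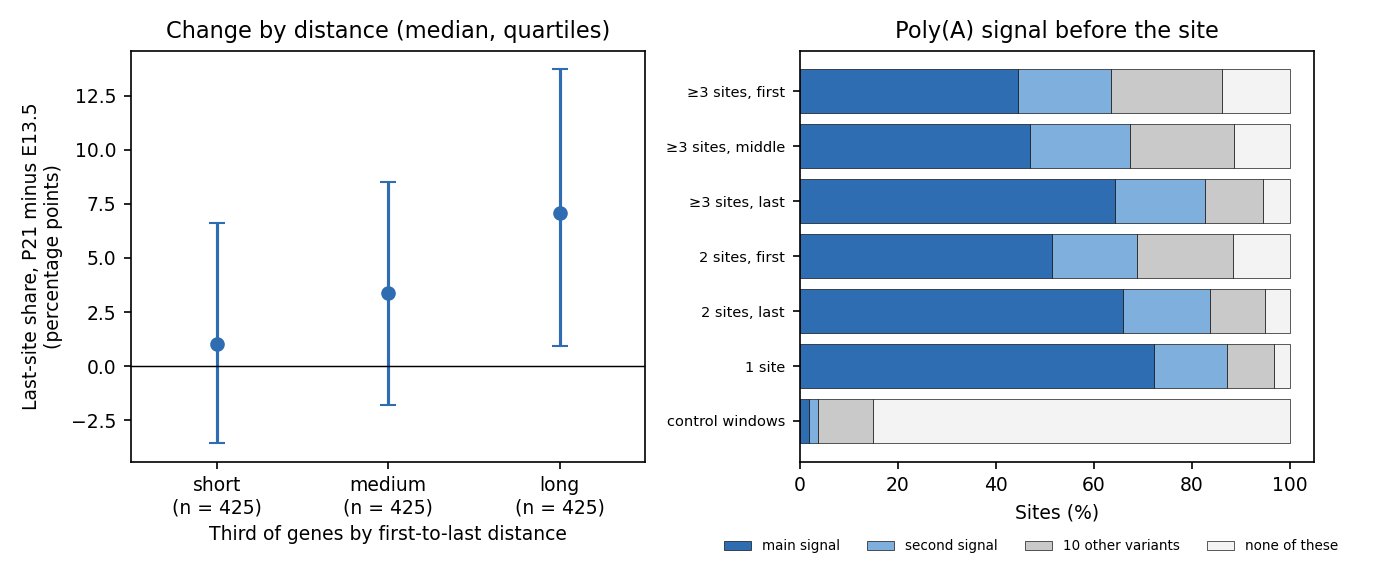
Left, change of the last-site share from E13.5 to P21 (percentage points, median with quartile bars) in 3 groups of 425 genes by the distance from first to last site. Right, percentage of sites with each class of poly(A) signal in the 40 bases before the site. The change is +7.06 points in the long group and +1.03 in the short one, and the main signal, AATAAA, stands before 64.3% of last and 44.6% of first sites.

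A change in the use of sites passed edgeR's diffSpliceDGE gene test (Benjamini-Hochberg adjusted p of 0.05 or less) in 55 of the 1481 genes. That is 3.71%, against 1.6% of the genes with 2 sites and 2.33% of both kinds together. Unadjusted p was under 0.05 in 309 of the 1481 genes, a count with no background given here. The genes held a median of 276 tags per library and the genes with 2 sites 225, so the counts behind the higher share are slightly deeper. Without the P21 library the test called 2 genes, without E13.5 14, without E15.5 21 and without P6 23, while without P0 it called 84. On simulated counts with each gene's level as in the libraries, the gene test found 0% of genes in which 1 site changed by a log2 value of 1 and 20% at a log2 value of 2, so it missed most such changes there. With flat gene levels in the simulation it found 42% and 92%, with 8 false calls among 4091 unchanged genes. What the test found there thus depended on how the gene's own level ran over the stages. The simulated scatter was fixed and not estimated from these libraries. Only last sites of moderate share were changed, in genes with 2 or more sites.

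Of the 55 genes, the last share was higher at P21 than at E13.5 in 48 and lower in 7, with a median change of +16.4 points. The first share was lower in 44, with a median change of -12.0 points, and the middle share in 34, with -5.88 points. In shares, the change was mainly between the ends: 29 genes gained most at the last and lost most at the first site, and 15 gained most at the last and lost most at the middle sites. In 5 genes the first site gained and the last lost most, in 4 the first gained and the middle lost most, and in 2 the middle gained and the first lost most. The direction of the last share was the same in both columns in 54 genes, Brwd1 being the exception. Of the 48 genes, 41 had all sites in 1 exon, and of the 7 genes 5 had sites over several exons.

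**Figure D3:**
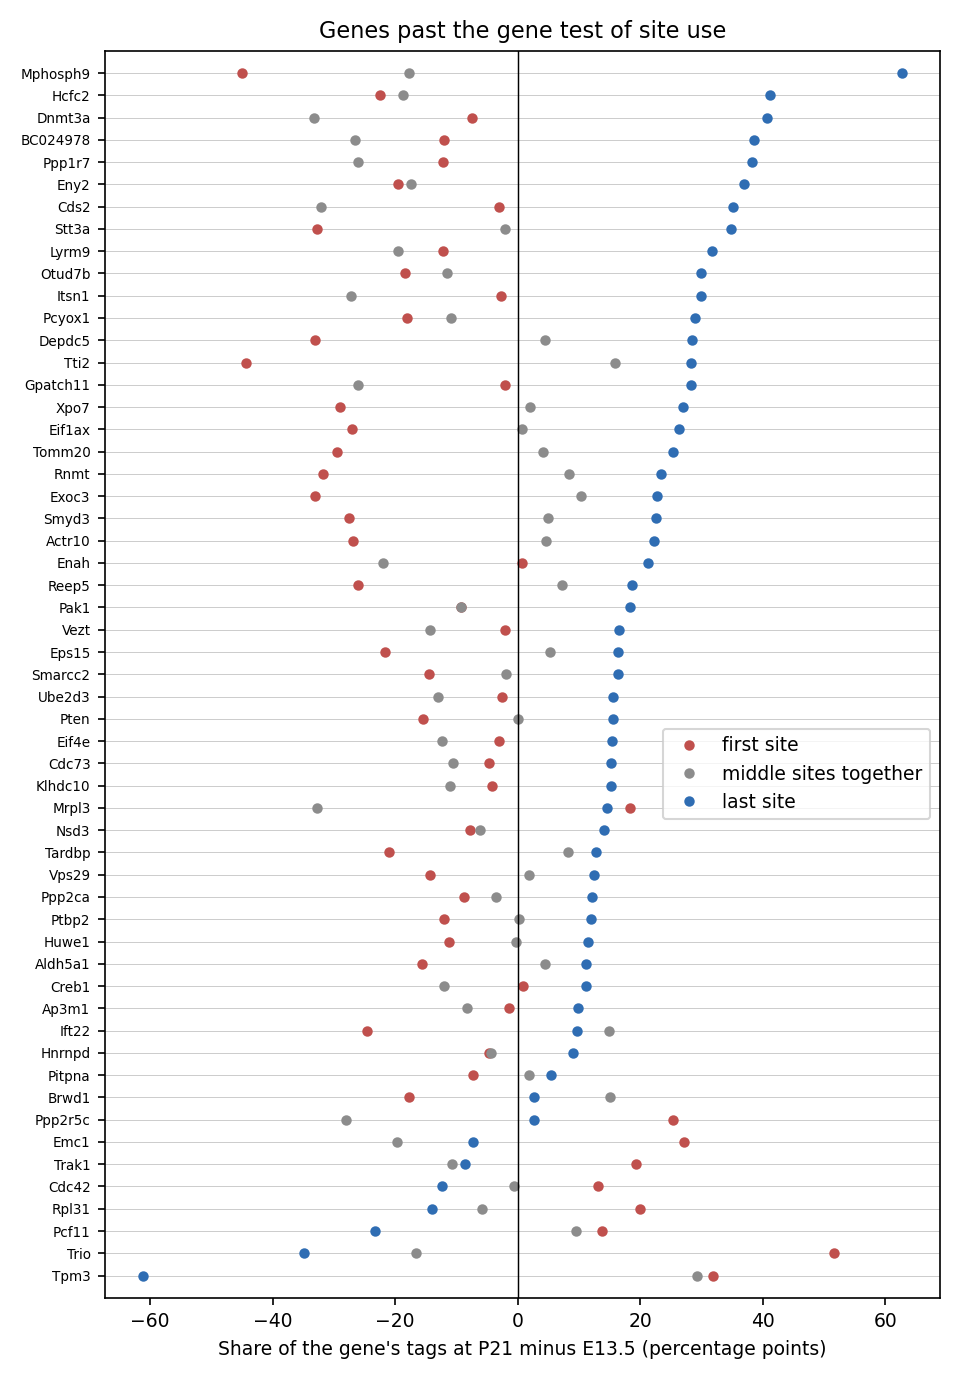
Change in share (P21 minus E13.5, percentage points) of the first, middle and last site in the 55 genes past the gene test, ordered by the change of the last site. The last-site points lie above 0 in 48 genes, up to Mphosph9, and below 0 in 7, down to Tpm3.

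The level of a gene, all its tags together, was tested apart from the choice of site. Of the 55 genes, 8 rose and 7 fell in level with stage (edgeR quasi-likelihood F test), and 40 did not pass. Among all 1481 genes 197 rose (13.3%) and 258 fell (17.4%), where 16.9% of all genes tested rose and 13% fell. The median fitted log2 change was -0.13, against -0.02 over all genes tested. The median change of the last share was +2.64 points in the 179 genes whose level rose, +3.01 points in the 247 whose level fell and +3.88 points in the 1007 others with at least 20 tags per library.

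The test of each site against the others of its gene was stricter. It called 4 last sites, all rising (0.270% of last sites, against a background of 0.112% of all sites rising), and 2 first sites rising. It also called 1 first site and 2 middle sites falling (background 0.0745% falling). Of the 5121 member sites, 291 had an unadjusted p under 0.05, a share near the 0.05 that unchanged sites would give. A pair of other tests, which set each site against its gene's total, gave more calls: DESeq2, and edgeR with the gene total as an offset, a test added after the first results were seen. DESeq2 called 56 last sites rising (3.78%, where 2.21% of the last sites of all genes with 2 or more sites were called) and 6 falling (0.405%, against a background of 0.326%). The offset test called 57 last sites rising (3.85%, background 2.26%) and 3 falling (0.203%, background 0.163%), and 37 rising last sites were shared.

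First sites went mostly the other way in both tests. DESeq2 called 55 falling (3.71%, background 2.52%) and 14 rising (0.945%, background 0.583%), and the offset test 35 falling (2.36%, background 1.72%) and 12 rising (0.810%, background 0.513%). Middle sites, set against all sites of genes with 2 or more, had 25 falling (1.16%, background 1.37%) and 10 rising calls (0.463%, background 1.21%) by DESeq2. The offset test gave 24 falling (1.11%, background 0.978%) and 13 rising calls (0.602%, background 1.23%) among them.

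Stt3a, a catalytic subunit of the oligosaccharyltransferase that adds sugar chains in the endoplasmic reticulum, has 3 sites in one exon on chromosome 9, the last 3067 bases after the first. The last site held 10.6%, 11.8%, 13.6%, 20.8%, 29.6% and 45.4% of the gene's tags from E13.5 to P21, and the first 80.1%, 82.6%, 80.9%, 75.6%, 65.6% and 47.5%. The 95% Wilson interval of the last share was 40.1% to 50.7% at P21, against 8.39% to 13.3% at E13.5, for counting error only. The P21 columns gave 36.8% and 55.6%, both above the 10.2% and 11.0% of the E13.5 columns. In absolute terms the first site had 136, 114, 104, 86.3, 61.7 and 44.0 CPM and the last 17.9, 16.2, 17.4, 23.8, 27.9 and 42.0 CPM, so at P21 the first was at its lowest and the last at its highest level. In bulk tissue, fewer cells of a type and less RNA per cell cannot be told apart. The gene test gave an adjusted p of 0.00358 (0.00258 without A-rich sites, and so without the middle site), and the last site's fitted log2 change against the other sites was 2.17 ± 0.36 (SE), adjusted p = 0.0203 in edgeR's site test. The level of the gene fell by 0.93 on the log2 scale (SE 0.16, adjusted p = 0.0068, edgeR).

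Eif1ax, an X-linked translation initiation factor, behaved alike. Its last site, 3915 bases after the first, held 11.0%, 14.1%, 15.6%, 26.9%, 24.0% and 37.3% of tags from E13.5 to P21. The first site held 62.2%, 57.9%, 59.5%, 44.9%, 51.1% and 35.2%, while the middle site stayed between 24.9% and 28.2%. Shares thus shifted between the outer sites. The gene test gave an adjusted p of 0.00358 and the site test of the last site a log2 change of 1.72 ± 0.29 (SE), adjusted p = 0.0203 (edgeR).

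In Ppp1r7, a regulatory subunit of protein phosphatase 1, the middle site lost more than the first. The last site, 8220 bases after the first, held 20.7%, 20.6%, 29.99%, 38.6%, 41.7% and 58.9% of tags. The middle site held 36.9%, 25.6%, 24.0%, 18.5%, 21.8% and 10.9%, and the first 42.4%, 53.8%, 46.0%, 42.9%, 36.5% and 30.2%. The last site's level was 117 CPM at P21, against 33.1 CPM at E13.5. The gene test gave an adjusted p of 0.00289 and the last site's log2 change was 1.60 ± 0.31 (SE), adjusted p = 0.0381 (edgeR site test).

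Dnmt3a, which sets new DNA methylation, has 6 sites over 6601 bases of one exon on chromosome 12, and its 4 upstream sites moved apart from its 2 downstream ones. Site 3, the strongest early, held 32.2%, 34.2%, 21.8%, 21.6%, 6.10% and 5.29% of tags from E13.5 to P21. The last site held 18.7%, 14.8%, 29.3%, 23.4%, 60.2% and 59.4%. The largest step of both lay between P0 and P6, and no library up to P0 overlaps the later ones in either share. Site 3 had already gone from 34.2% at E15.5 to 21.8% at E18.5. Site 5, counted as a middle site, had 10.3%, 19.4%, 23.1%, 21.9%, 27.2% and 30.9%, so the middle sites did not move as one. Sites 2 and 3 fell, with log2 changes of -3.28 ± 0.69 and -2.89 ± 0.57 (SE; adjusted p = 0.0355 and 0.0204), and the last site rose by 2.02 ± 0.44 (adjusted p = 0.0416, edgeR site test). The level of the gene did not pass the test (log2 change -0.29 ± 0.27, adjusted p = 0.44).

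**Figure D4:**
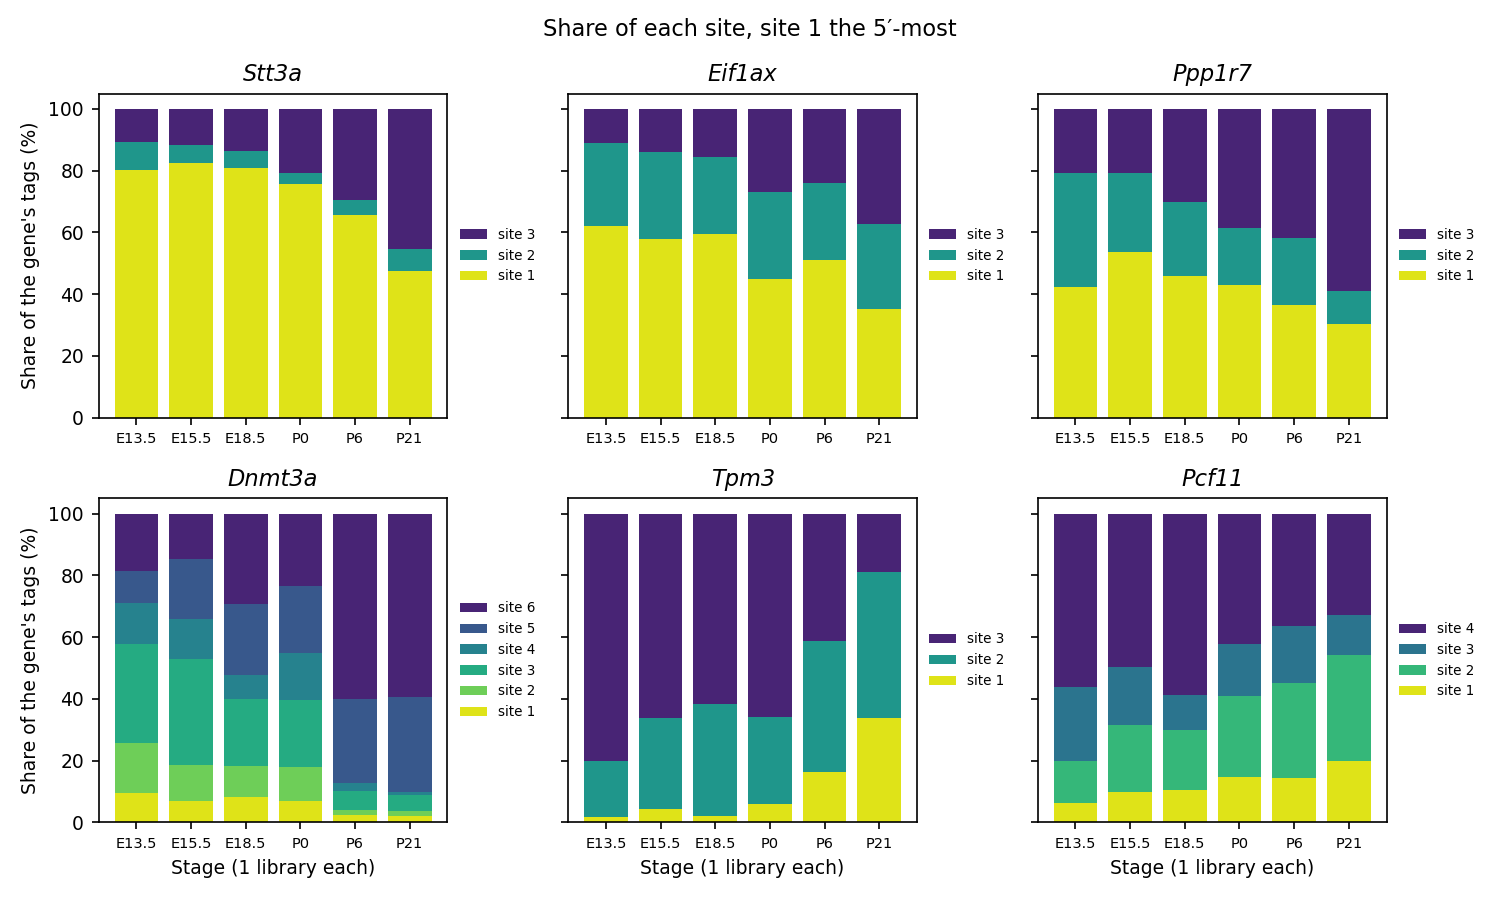
Share of the gene's tags (%) at each site by stage (1 library each) in Stt3a, Eif1ax, Ppp1r7, Dnmt3a, Tpm3 and Pcf11, stacked from site 1, the 5′-most, at the bottom. At P21 the last site holds 45.4% in Stt3a and 59.4% in Dnmt3a, more than at E13.5, and 19.1% in Tpm3 and 33.0% in Pcf11, less than at E13.5.

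The genes named from here to Itsn1 were picked after their values were seen, as those with the largest changes of the last or middle share among genes past the gene test. Only Pcf11 and Cdc42 among them also met the rule set earlier. In Mphosph9, an M-phase phosphoprotein, the last site held 30%, 27.3%, 45.2%, 51.6%, 93.1% and 92.7% of tags. The first site stayed low in level, at 4.14, 4.52, 2.42, 2.86, 2.74 and 4.15 CPM. The last site had 2.48, 2.40, 3.08, 5.08, 70.9 and 76.9 CPM, so transcripts added from P6 on ended almost all at the last site. The gene had 300 tags at P21 and only 30 at E13.5, so its early shares rest on few tags (adjusted p = 0.00636, gene test). Its middle site has A-rich sequence after it, and without A-rich sites the adjusted p was 0.0264. The last site of Hcfc2, a host cell factor, went through 13.6%, 18.2%, 25.6%, 29.1%, 42.0% and 54.8% without a step back (adjusted p = 0.011). Eny2, a subunit shared by the SAGA and TREX-2 complexes, had 45.6%, 62.5%, 54.4%, 73.5%, 78.7% and 82.5% at its last site (adjusted p = 0.0095). In Cds2, a CDP-diacylglycerol synthase, the last site had 18.2%, 16.9%, 29.7%, 47.6%, 62.2% and 53.3%, and the middle site 74.4%, 74.2%, 61.9%, 46.3%, 32.4% and 42.3% (adjusted p = 0.0065). BC024978 had 67.6% at its last site at P21, against 29.01% at E13.5 (adjusted p = 0.0368).

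In 7 genes the last share was lower at P21. In Tpm3, a tropomyosin gene with sites over several exons, the last site held 80.2%, 66.1%, 61.7%, 65.8%, 41.3% and 19.1% of tags from E13.5 to P21. Its first site, 8772 bases upstream, held 1.86%, 4.23%, 2.00%, 5.81%, 16.3% and 33.7%, and the middle site 18.0%, 29.6%, 36.3%, 28.4%, 42.4% and 47.2%. The first site rose by a log2 value of 4.16 ± 0.69 (SE, adjusted p = 0.0203, edgeR site test), and its level was 38.2 CPM at P21, against 1.66 CPM at E13.5. In Trio, a guanine nucleotide exchange factor for small GTPases, the first site held 2.88%, 5.97%, 6.43%, 9.93%, 17.7% and 54.4%, and rose by a log2 value of 4.24 ± 0.58 (SE, adjusted p = 0.00533). That site lies 39885 bases upstream of the last, at the end of another exon.

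Pcf11, a subunit of cleavage factor II and so part of the machinery itself, had its first site 24513 bases upstream of its last, in another exon, and its second 42 bases after the first. From E13.5 to P21 the first held 6.25%, 9.68%, 10.48%, 14.6%, 14.3% and 20% of tags. The second held 13.8%, 21.9%, 19.4%, 26.4%, 30.7% and 34.3%. The last site held 56.2%, 49.7%, 58.9%, 42.4%, 36.4% and 33.0% (adjusted p = 0.0095, gene test). The level of its last site was 27.4 CPM at P21, against 24.8 CPM at E13.5, while the first had 16.6 CPM, against 2.76 CPM. The last site thus had a like level at both ages, and the first a higher one at P21. Early cleavage of Pcf11 transcripts is known in other cells as a way in which the factor limits its own messenger.

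Cdc42, a small GTPase with 5 sites, gained at its first 2 sites: the first held 10.7%, 13.8%, 15.6%, 14.9%, 16.6% and 23.7% of tags, the second 5.29%, 7.40%, 7.96%, 10.5%, 12.3% and 17.5%, and the last 62.4%, 59.5%, 60.2%, 65.8%, 58.9% and 50.1% (adjusted p = 0.00214). Its sites 3 and 4 had lower shares at P21, 5.39% and 3.32%, against 14.4% and 7.22% at E13.5. Trak1, an adaptor for mitochondrial transport, had 69.6% at its last site at P21, against 78.2% at E13.5, and 22.0% at its first, against 2.78% (adjusted p = 0.022). In Rpl31, a ribosomal protein gene, the last site had 18.2% at P21, against 32.2% at E13.5 (adjusted p = 0.039), but it is among the genes whose columns lay apart. Emc1, a subunit of the endoplasmic reticulum membrane complex, had 5.68% at its last site at P21, against 13.02% at E13.5, and 37.9% at its first, against 10.8% (adjusted p = 0.011). Cdc42, Tpm3, Trio, Trak1 and Pcf11 have sites over several exons, Rpl31 and Emc1 all in one.

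The middle sites together had a higher share at P21 in 21 of the 55 genes, and in 2 of these they gained more than the first or the last site. Beside Tpm3, and Brwd1 described below, the largest such differences were in 3 genes. Tti2, a cofactor for PI3K-related kinases, had 34.7% at its middle site at P21, against 18.8% at E13.5, Ift22, a ciliary transport gene, 35.8%, against 20.9%, and Exoc3, an exocyst subunit, 14.1%, against 3.67%. In Tti2, Ift22 and Exoc3 the first site lost most, and it was 27.5%, 49.2% and 28.7% at P21. Beside Dnmt3a and Cds2, described above, the middle share fell furthest among the 55 genes in Mrpl3, Ppp2r5c and Itsn1. In Ppp2r5c, a regulatory subunit of protein phosphatase 2A, it was 54.3% at P21, against 82.2% at E13.5. It was 58.2%, against 91.0%, in Mrpl3, a mitochondrial ribosomal protein gene, and 52.2%, against 79.4%, in Itsn1, an endocytic scaffold. In Ppp2r5c the first site gained most in share, with 34.9% at P21, and in Itsn1 the last, with 44.0%. The middle sites of Ppp2r5c were not lower in level, at 181 CPM at P21, against 152 CPM at E13.5. Its first site had 117 CPM at P21, against 17.7 CPM at E13.5. Tti2, Ppp2r5c, Mrpl3 and Itsn1 have sites over several exons, Ift22 and Exoc3 all in 1. The gene test gave these 6 genes adjusted p values of 0.0033 to 0.032.

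Genes of RNA processing were followed as lists chosen with earlier results of these data known. Of 21 RNA-binding proteins with 3 or more sites, 3 passed the gene test (Hnrnpd, Ptbp2 and Tardbp), and the median change of the last share was +6.56 points, with 14 of 21 higher at P21. Over all genes with 3 or more sites 3.71% passed, the median change was +3.67 points and 67.8% were higher at P21, so the share of higher genes in the list was near that of all. In Tardbp, which encodes TDP-43, a protein known to act on its own 3′ UTR, the first site held 44.3%, 38.8%, 31.6%, 27.7%, 29.8% and 23.4% and the last 26.7%, 28.6%, 35.2%, 41.2%, 40.1% and 39.5% (adjusted p = 0.0266). Ptbp2, a neuronal splicing regulator, packed 4 sites into 484 bases. Site 2, 230 bases after the first, had 21.2% at P21, against 46.9% at E13.5, and site 3, at 322 bases, 36.8%, against 10.9% (adjusted p = 0.0026, gene test). Most of the change lay between these close neighbours. Hnrnpd, an AU-rich element binding protein, had 15.1% at its last of 5 sites at P21, against 6.19% at E13.5. Its middle sites moved further: site 4 had 34.7% at P21, against 15.3% at E13.5, and site 2 40.1%, against 59.4%. Of the machinery of cleavage and polyadenylation, 3 of the 23 genes measured had 3 or more sites, Pcf11, Cpsf2 and Cpsf6, and only Pcf11 passed the gene test. In total tags 1 of these 23 rose, Pcf11 (log2 change 0.82 ± 0.24, SE, adjusted p = 0.0396, edgeR quasi-likelihood F test), and 3 fell. Over all genes tested for level 16.9% rose and 13% fell.

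The further lists stand against the same values over all genes with 3 or more sites, 3.71% past the gene test, a median of +3.67 points and 67.8% higher at P21. Chromatin regulators had 12 members, with 11 higher at P21 in the last share, a median change of +7.74 points and 2 past the gene test, Dnmt3a and Smarcc2. Smarcc2, a subunit of the BAF remodelling complex, had 82.1% at its last site at P21, against 65.7% at E13.5. Its first site, at 10.2% at P21, against 24.7% at E13.5, has no poly(A) signal and A-rich sequence after it, and without A-rich sites the gene did not pass (adjusted p = 0.359, gene test). Phosphatase subunits had 14 members, 3 past the test (Ppp2r5c, Ppp2ca and Ppp1r7) and a median of +3.40 points. Ppp2ca, the catalytic subunit of protein phosphatase 2A, held 5.58%, 6.75%, 8.87%, 12.8%, 11.0% and 17.8% at its last site. Ubiquitin-conjugating enzymes had 8 members, 1 past the test (Ube2d3, 37.8% at its last site at P21, against 22.2% at E13.5), and activity-related transcription factors 3, of which Creb1 passed (15.3%, against 4.14%). The list of small GTPases of the Ras family and its Cdc42-like relatives had 5 members, Cdc42 the 1 past the test, and a median of -2.78 points.

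Other lists held no gene past the test. The 42 zinc finger genes with at least 20 tags per library had a median change of -0.91 points, and 21 of them were higher at P21. Rab and Arf GTPases had a median of +2.72 points over 12 genes, solute carriers +5.39 over 17, synapse genes +6.21 over 8, MAP kinases +7.80 over 4, neuronal cytoskeleton genes +10.4 over 4 and retinal progenitor genes +2.05 over 5. The photoreceptor list held 4 genes with a median of -5.07 points, and 2 of the 4 were higher at P21, so they had no common direction. They include Gnb1, at -20.5 points, whose P21 columns lay apart, as given below. The lists of the cell cycle, Müller glia, red blood cells and microglia held no gene with 3 or more sites, and those of lens, pigment epithelium and vessels 1 each (Mip, Rgr and Flt1).

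The genes with the most tags and the most sites were described whatever they did. In Gnb1, the beta subunit of rod transducin, the last site held 72.6%, 79.1%, 79.8%, 82.9%, 77.6% and 52.1%. At P21 its last site had 1729 tags in the first column and 21 in the second, which gives shares of 68.7% and 2.49%, and the gene test was not passed (adjusted p = 0.63). Serbp1, a messenger-binding protein, kept its first site on top, at 75.6%, 74.4%, 74.0%, 76.3%, 72.6% and 69.8% (adjusted p = 0.27).

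Of the genes with 7 sites and the most tags, Ssr1, a subunit of the translocon-associated complex, had 4.95%, 6.36%, 4.63%, 7.11%, 8.29% and 14.0% at its last site, 6793 bases after the first (adjusted p = 0.17). Azin1, the antizyme inhibitor of polyamine synthesis, spread its tags over 7 sites with no site above 32.7% in any of the 6 libraries (adjusted p = 0.78). Brwd1, a bromodomain protein, passed the gene test (adjusted p = 0.0026): its first site held 22.8%, 22.1%, 20.4%, 18.2%, 12.4% and 5.05%, and its site 6 20.95%, 31.2%, 33.1%, 36.3%, 33.2% and 45.8%. Site 6 is 74268 bases downstream of the first, in another exon.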

How the data were processed

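PA-seq libraries of mouse retina, 1 sample at each of 6 stages, were available as a deposited table of tag counts per poly(A) site in 12 columns, 2 per stage, with no column of a sample outside the series. The counts are raw tag numbers, per the file headers, and a deposited enrichment score per site was not used. The aligner was BWA 0.7.5a-r405 and the build mm10, per the submitters' processing notes. How sites were clustered and what the columns of a stage stand for are not given in the sources used here. The columns of a stage were added and never treated as replicates.

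Sites were placed on GENCODE M21 by their 3′ edge, read as 1-based: annotated transcript ends coincided with it more often than with any neighbouring base on either strand. First is the 5′-most qualifying site of a gene and last the 3′-most, and those between were added as middle. Of the genes, 40 had a site that also lay in another gene or its flank of 1000 bases, and 35 sites had 0 tags in at least 1 library. Shares are percentages of the tags at a gene's qualifying sites, with 95% Wilson intervals. PCR copies were not marked by molecular identifiers, so these intervals cover counting error alone.

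Site use was tested with diffSpliceDGE of edgeR 4.0.16 (R 4.3.3, TMM) over 10741 sites of 4291 genes, with 1 linear term for stage order, and levels with edgeR's quasi-likelihood F test on 14219 genes with at least 1 CPM in at least 2 libraries. Fitted changes span the 5 steps from E13.5 to P21, and SE is the standard error. Tests were tried on simulated data with 200 changed genes. Alternatives included DESeq2 1.42.0 and a test with the gene total as offset, added after the results were seen. Members and lists were chosen with earlier results of these data known.

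Named genes had at least 20 tags in every library and a change of one direction in both columns: the largest moves of the last or middle share with a site past the site test, the list members with the largest moves past the gene test, and, without these limits, the 3 genes with the most sites and the 3 with the most tags. Since few sites passed, the same rule was also applied with the gene test, after values were seen. Poly(A) signals were searched in annotated transcripts. Genomic sequence was not used here. A gene that the rule picked is not reported here.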

Additional observations from a re-analysis of the deposited data

How the results depend on the processing

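No paired analysis was possible because each stage had 1 sample. The count of 55 genes past the gene test was 34 with the first columns alone, 34 with days after conception in place of stage order and 35 with sites of at least 10%, of which 32, 23 and 32 were among the 55. It was 43 with the second columns alone (35 shared), and from 51 to 65 with RLE size factors, a minimum of 50 tags or none, 5% of 3′ UTR tags, merged sites or no A-rich sites. Leaving out 1 library gave 2 to 84 genes, with 2, 14, 21, 37, 55 and 22 of the 55 shared without P21, E13.5, E15.5, E18.5, P0 and P6. Rising last sites, 4 in the site test, numbered 56 by DESeq2, 57 with gene totals as offset, 7 with a minimum of 50 tags, 1 with the second columns or sites of at least 10%, 0 with days, and 0 to 9 with 1 library left out. Falling last sites, 0 in the site test, were 6 by DESeq2 and 3 with the offset. First sites rising, 2 in the site test, were 14 by DESeq2, 12 with the offset, 4 with a minimum of 50 tags, 1 with the first columns, and 0 to 4 with a library left out. First sites falling, 1 in the site test, were 55 by DESeq2, 35 with the offset, 0 with either column alone, with days or with any library left out. Middle sites rising, 0 in the site test, were 10 by DESeq2, 13 with the offset and 0 to 1 with a library left out. Middle sites falling, 2 in the site test, were 25 by DESeq2, 24 with the offset, 1 with the first columns or days, 0 with the second columns or sites of at least 10%, and 0 to 2 with a library left out. The median change of the first share was -3.10 points with the second columns and -3.15 with sites of at least 10%, against -2.66 in genes with at least 20 tags at P21 and E13.5. That of the last share was +3.35 (first columns) to +4.15 points (sites of at least 10%), against +3.66 in the main setting. That of the middle share was -1.21 (first columns) to -0.87 points (second columns), against -1.01. Without replicates of a stage, no spread was available to judge these differences. Medians were not computed under settings that leave the shares as they are. With 1 library left out, genes whose level rose numbered 73 to 228 and those whose level fell 60 to 296. The fitted change of the last site of Ppp2r5c was below 0 with sites of at least 10%, at -0.0034, that of Serbp1 0.53 with the same limit, that of Brwd1 -0.45 with the first columns and -0.23 to 0.40 with 1 library left out (below 0 without E13.5), and that of Gnb1 -0.58 to 0.13 with 1 left out (above 0 without P21). The cause was not tested. DESeq2 and the offset give no test per gene. Depth limits single genes: in the simulations with gene levels as in the libraries, the offset test found 15% and DESeq2 12% of sites changed by a log2 value of 1, and both 63% at 2.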
